A study of Homo sapiens with 6 samples.

Results

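The complement genes described here are the 9 rows of the BT549 count table that carry the symbols C1R, C1S, C3, CFB, CFD, CFI, CD46, CD55 and CD59, out of 23346 genes in the table. They were taken by symbol, with earlier results of these data known. BT549 is a mesenchymal-like human breast cancer cell line, labelled wild type in every library. Poly(A) RNA was sequenced from 3 libraries of cells transfected with BNC2 siRNA and 3 libraries of cells transfected with NC siRNA, the negative control, each at 20 nM, with RNA prepared 6 days after transfection. The methods describe the BNC2 siRNA as an equal mix of 3 siRNAs and the 3 libraries of a group as biological replicates of this single cell line.

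Complement is a cascade of serum proteins that tags and lyses cells. In the classical pathway, the proteases encoded by C1R and C1S sit in the C1 complex with C1q and cleave C4 and C2. C3 is the component on which the pathways meet, CFB and CFD encode the proteases of the alternative pathway, and CFI encodes the protease that inactivates deposited C3b. Cells shield themselves from complement with membrane proteins: CD46 serves as a cofactor for factor I, CD55 speeds the decay of the C3 convertases, and CD59 blocks assembly of the membrane attack complex. Liver is the main source of the serum components, although fibroblasts and other mesenchymal cells are known to make C1r and C1s.

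The libraries held between 16093978 and 18246254 counts. Values are given as CPM, the counts relative to library size after TMM scaling in edgeR, and 3 counts corresponded to 0.168 to 0.191 CPM. The 12186 genes that exceeded 1 CPM in 3 or more of the 6 libraries entered edgeR's quasi-likelihood test, and calls were made at an adjusted p (Benjamini-Hochberg) no higher than 0.05. BNC2 itself was 65.6, 51.5 and 58.6 CPM with NC siRNA and 35.5, 36.6 and 41.6 CPM with BNC2 siRNA, which left 64.6% of the control level (log2 fold change -0.63, standard error 0.09, adjusted p = 8.2e-06). Next, the labelled cell type was checked against its markers. The mesenchymal genes VIM, FN1, CDH2 and ZEB1 summed to between 4030 and 4116 CPM per library with NC siRNA and between 4846 and 5077 CPM with BNC2 siRNA, with CDH2 changed the most (log2 fold change 1.36, edgeR adjusted p = 1.5e-12). Of the 5 epithelial genes CDH1 had at most 1 count in any library and EPCAM and ESRP1 had none. KRT8 had 5, 4 and 2 counts with NC siRNA and 1 in each BNC2 siRNA library, and KRT18 had 94, 90 and 59 against 11, 5 and 7 counts. Hepatocyte markers summed to less than 1 CPM in each library.

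Of the 9 complement genes, 6 passed the filter on low counts, and 5 of these (C1R, C1S, CD46, CD55 and CD59) fell after BNC2 siRNA. None rose and C3 was not called. In the same test 72.9% of all genes tested were called and 36.2% of all genes tested were called down, so that a call in either direction was common in this comparison. The median log2 fold change was -0.82 over the 6 complement genes tested and 0.00 over all genes tested. In the 5 genes that fell, each BNC2 siRNA library lay below each NC siRNA library, as was the case for 37.2% of all genes tested. In bulk RNA, a lower level in every cell and fewer cells with a high level cannot be told apart.

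**Figure D1:**
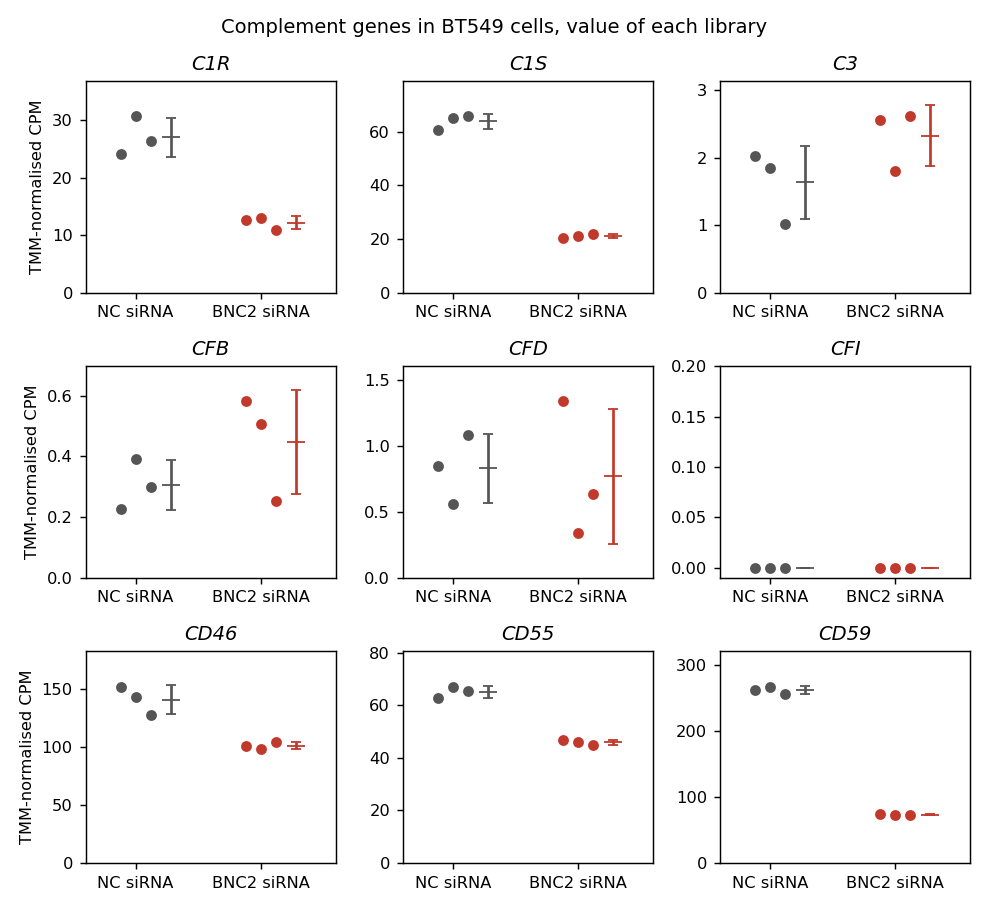
TMM-normalised CPM (linear axes, scaled for each gene) of the 9 complement genes in each NC siRNA library (grey points) and each BNC2 siRNA library (red points), with the mean and SD of the 3 libraries beside them. The groups are separate for C1R, C1S, CD46, CD55 and CD59, overlap for C3, CFB and CFD, and are at 0 for CFI.

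C1S and C1R, the protease pair of the C1 complex, both fell. C1S was 60.7, 65.0 and 65.7 CPM with NC siRNA and 20.4, 21.1 and 21.7 CPM with BNC2 siRNA. The level after knockdown was 33.0% of control (log2 fold change -1.60, standard error 0.07, edgeR adjusted p = 9e-12). C1S thus lost most of its transcript in all 3 knockdown libraries, with a spread between replicates that was small beside the difference. C1R was 24.1, 30.6 and 26.3 CPM with NC siRNA and 12.7, 13.0 and 10.9 CPM with BNC2 siRNA. The level of C1R after knockdown was 45.2% of control (log2 fold change -1.15, standard error 0.11, edgeR adjusted p = 6.8e-08). The highest knockdown library of C1R, at 13.0 CPM, was far below the lowest control library, at 24.1 CPM.

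Because both genes were counted in the same libraries, their ratio does not depend on library scaling. The ratio of C1R to C1S counts was 0.396, 0.471 and 0.401 with NC siRNA and 0.621, 0.615 and 0.501 with BNC2 siRNA. All 3 knockdown ratios were above the 3 control ratios, and the log2 ratio differed by 0.45, with an exact two-sided permutation p of 0.1, the smallest that 3 libraries against 3 allow. When genes were ordered by the distance of their mean-centred log2 CPM over the 6 libraries, C1S was at place 1206 of 12185 from C1R, and C1R at place 627 from C1S. Many genes outside the complement system therefore lay nearer to each of the pair by this distance than its partner did. Centring removes the level of a gene, and the distance takes in the size of its change. That size differed between C1R (log2 fold change -1.15) and C1S (-1.60), so the places do not show whether the pair moved together.

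C1RL, which encodes a C1r-like protease and lies next to C1R, rose while C1R and C1S fell. It was 6.98, 6.72 and 6.44 CPM with NC siRNA and 27.8, 27.0 and 25.5 CPM with BNC2 siRNA, a 3.98-fold increase (log2 fold change 1.99, standard error 0.10, edgeR adjusted p = 2.4e-11). Relative to C1R, the count of C1RL changed from 0.252 ± 0.036 (SD, n = 3) to 2.20 ± 0.13 (SD, n = 3). The ratio lay between 0.219 and 0.290 in the control libraries and between 2.08 and 2.34 in the knockdown libraries, without overlap. Its exact two-sided permutation p was again 0.1. Every knockdown library was above control for C1RL and below it for C1R, so this separation and p followed from those values and add no further result.

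C1S, C1R and C1RL lie side by side on chromosome 12 of GRCh37, the assembly of hg19. C1S spans chr12:7096351-7178336 on the plus strand, C1R chr12:7187513-7245203 on the minus strand and C1RL chr12:7242183-7261834 on the minus strand (GENCODE). A gap in the assembly, chr12:7189877-7239876, takes up 50.0 kb within C1R, so reads from exons in the missing sequence could not be placed in any library. C1R is therefore given per library and not per length. The GENCODE models of C1R and C1RL overlap on the same strand, and a read that fits both genes would be left out of the deposited counts.

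Within 500 kb of the start of C1R, 29 genes were tested, C1R included, of which 8 rose, 12 fell and 9 were not called, beside 36.6% up and 36.2% down over all genes tested. Rises and falls were mixed along this stretch. After the values were seen, several neighbours were picked to illustrate this: LPCAT3, whose annotated span overlaps C1S on the opposite strand, rose (log2 fold change 0.98, standard error 0.07, edgeR adjusted p = 2.6e-09), as did the scavenger receptor gene CD163L1 (1.47), while its neighbour CD163 fell (-1.49). Relative to the start of C1R, C1S started at -148.9 kb and C1RL at 16.6 kb.

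**Figure D2:**
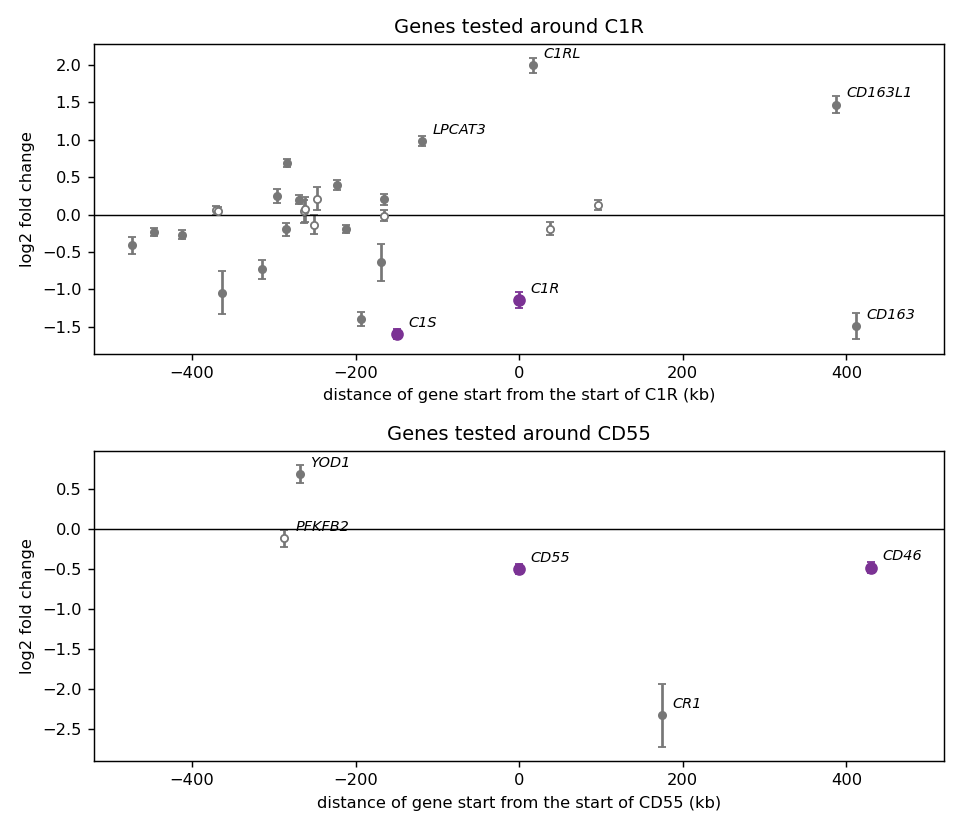
Log2 fold change (BNC2 siRNA over NC siRNA, bars are standard errors) of the genes tested within 500 kb of the start of C1R (top) and of CD55 (bottom), against the distance of their starts in kb. Purple points are the complement genes C1R, C1S, CD55 and CD46, and open points were not called. Rises and falls are mixed around C1R (8 up, 12 down, 9 not called), and CD55 and CD46 lie below 0, as does CR1, which passed the filter through its NC siRNA libraries alone.

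The 3 membrane regulators were all abundant in control cells and all fell. CD59 changed most among the 6 complement genes tested. Its values were 262, 267 and 256 CPM with NC siRNA and 73.4, 72.3 and 72.2 CPM with BNC2 siRNA. The level after knockdown was 27.8% of control (log2 fold change -1.85, standard error 0.06, edgeR adjusted p = 6.6e-14), and 3.53% of all genes tested had a log2 fold change as low or lower. The 3 knockdown libraries differed from each other by little more than 1 CPM, so that the fall was many times the spread between replicates.

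CD55 and CD46 fell by less. CD55 was 62.8, 67.1 and 65.4 CPM with NC siRNA and 46.9, 46.0 and 44.8 CPM with BNC2 siRNA, 70.5% of control (log2 fold change -0.50, standard error 0.06, edgeR adjusted p = 2.6e-06). CD46 was 152, 143 and 128 CPM with NC siRNA and 101.1, 97.9 and 104 CPM with BNC2 siRNA, 71.6% of control (log2 fold change -0.48, standard error 0.07, edgeR adjusted p = 5.9e-06). For CD46 the control libraries were more spread out, yet the lowest of them was still above the highest knockdown library. Changes as low or lower than those of CD55 and CD46 were seen in 22.4% and 23.3% of all genes tested.

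The balance of the membrane regulators shifted accordingly. The ratio of CD59 to CD55 counts was 4.18, 3.98 and 3.92 with NC siRNA and 1.57, 1.57 and 1.61 with BNC2 siRNA, without overlap (exact two-sided permutation p = 0.1). The ratio of CD46 to CD55 was 2.17 ± 0.24 (SD, n = 3) with NC siRNA and 2.20 ± 0.11 (SD, n = 3) with BNC2 siRNA, a difference smaller than the spread between replicates (exact two-sided permutation p = 0.9). The CD59 to CD55 ratios of the groups were thus separate and the CD46 to CD55 ratios overlapped, and with 3 libraries a group neither permutation test could reach a p below 0.1.

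Levels of different genes were compared per kilobase of the GENCODE canonical transcript, which is 7563 bases for CD59, 3320 for CD46, 2590 for CD55 and 2682 for C1S. In NC siRNA libraries CD46 came first with 42.5 ± 3.67 CPM per kb (SD, n = 3), followed by CD59 with 34.6 ± 0.72, CD55 with 25.1 ± 0.85 and C1S with 23.8 ± 1.02. CD55 and C1S differed by little more than their SDs, and their ranges over the 3 libraries overlapped. In BNC2 siRNA libraries CD46 was still first with 30.4 ± 0.92 CPM per kb, followed by CD55 with 17.7 ± 0.41, CD59 with 9.60 ± 0.09 and C1S with 7.86 ± 0.24. With these lengths CD59 moved from above CD55 to below it. Shorter transcripts of CD59 would give it a higher level per length in both groups, and could leave it above CD55 after knockdown as well.

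CD55 (chr1:207494864-207560149) and CD46 (chr1:207925382-207968858) belong to the cluster of complement regulator genes on chromosome 1 and both lie on the plus strand of GRCh37. CR1, the complement receptor that binds C3b, lies between them, 174.6 kb from the start of CD55. CR1 was 3.32, 2.58 and 1.63 CPM with NC siRNA and 0.81, 0.17 and 0.51 CPM with BNC2 siRNA (log2 fold change -2.33, standard error 0.39, edgeR adjusted p = 5e-05). CR1 passed the filter through its NC siRNA libraries alone, so a fall was the only change it could show, and reads shared with its near-identical relative CR1L are not in the counts. Of the other genes tested within 500 kb of the start of CD55, which are named here after their values were seen, YOD1 rose (0.69) and PFKFB2 was not called (-0.11). CD59 lies elsewhere, at chr11:33724556-33758025 on the minus strand. Within 500 kb of its start 5 genes were tested, CD59 included, of which 1 rose, 3 fell and 1 was not called. Over all genes tested 36.6% rose and 36.2% fell. The nearest of these neighbours, FBXO3, named after its values were seen, starts 38.1 kb from CD59 and fell (log2 fold change -0.93, edgeR adjusted p = 1.9e-06).

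RefSeq promoter windows (GRCh38.p14) of 300 bases, which lie mostly upstream of an annotated start and run into its first bases, were available for 4 of the 5 genes that fell, and the window of the first start is shown for each because these genes moved in the same direction. All are written 5′ to 3′ on the strand of the gene, with matches to GGGCGG (the GC box bound by SP1), TGANTCA (AP-1), TTCNNNGAA (STAT) or TATAAA, the promoter box named after it, on either strand in capitals, and no match overlaps another here. C1R is chr12:7244992-7245291 (minus), CD46 chr1:207925133-207925432 (plus), CD55 chr1:207494773-207495072 (plus) and CD59 chr11:33757976-33758275 (minus) of GRCh37, where each sequence was found by exact match.
C1R: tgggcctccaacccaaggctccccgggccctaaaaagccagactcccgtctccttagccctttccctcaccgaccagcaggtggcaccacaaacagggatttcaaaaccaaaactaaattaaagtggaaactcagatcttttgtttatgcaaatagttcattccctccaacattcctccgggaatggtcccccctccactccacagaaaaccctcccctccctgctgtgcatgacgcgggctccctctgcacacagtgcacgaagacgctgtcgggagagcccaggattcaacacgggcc
CD46: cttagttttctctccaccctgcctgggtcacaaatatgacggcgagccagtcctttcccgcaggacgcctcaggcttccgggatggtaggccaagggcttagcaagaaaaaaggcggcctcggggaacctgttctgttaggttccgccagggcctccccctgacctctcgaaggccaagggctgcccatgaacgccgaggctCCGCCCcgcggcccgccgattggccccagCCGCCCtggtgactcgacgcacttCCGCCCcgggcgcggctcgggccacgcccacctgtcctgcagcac
CD55: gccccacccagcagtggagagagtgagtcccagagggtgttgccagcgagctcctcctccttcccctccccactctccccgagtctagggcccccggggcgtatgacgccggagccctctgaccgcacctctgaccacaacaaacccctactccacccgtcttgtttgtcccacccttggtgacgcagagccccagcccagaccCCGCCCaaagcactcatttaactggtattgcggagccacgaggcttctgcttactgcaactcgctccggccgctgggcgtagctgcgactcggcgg
CD59: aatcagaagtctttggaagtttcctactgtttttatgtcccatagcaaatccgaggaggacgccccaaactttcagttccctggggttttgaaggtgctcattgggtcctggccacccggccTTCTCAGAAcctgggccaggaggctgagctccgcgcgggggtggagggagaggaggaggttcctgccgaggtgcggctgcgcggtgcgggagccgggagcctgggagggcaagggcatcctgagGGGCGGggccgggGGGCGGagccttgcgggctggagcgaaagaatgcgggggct

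The GC box was found 3 times in the CD46 window, 1 time in that of CD55 and 2 times in that of CD59. In the C1R window shown none of these motifs was matched, while the window of its second start held 1 STAT motif. The second CD59 window overlaps the first and held the same motifs, the third held none, and the fourth held 3 AP-1 motifs and no GC box. The C1RL window held 1 AP-1 and 1 STAT motif. Of all windows, 7.71% held an AP-1 motif. Among 35116 RefSeq windows of the same length, 45.0% held the GC box, so its presence in these windows is common. The CD59 window also held 1 STAT motif, which 7.66% of all windows held. For comparison, the CFB window held 1 STAT motif and 1 TATA box, present in 7.66% and 11.5% of all windows, and CFB was barely detected in either group. CFD, also low in both groups, had 3 GC boxes in its window, and the CFI window held none of the motifs. A match describes the letters of the window and not binding of a factor.

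CD55 and CD59 are held on the cell surface by a glycosylphosphatidylinositol (GPI) anchor, whereas CD46 spans the membrane. All 29 genes of a list for making and attaching GPI anchors were tested, of which 18 rose, 5 fell and 6 were not called. Their median log2 fold change was 0.29, against 0.00 over all genes tested, of which 36.6% rose and 36.2% fell. GPAA1, a subunit of the transamidase that attaches the anchor, was 82.1, 89.6 and 83.4 CPM with NC siRNA and 226, 186 and 202 CPM with BNC2 siRNA (log2 fold change 1.27, standard error 0.07, edgeR adjusted p = 1.1e-10). PGAP1, which removes an acyl chain from the finished anchor, was 36.0, 28.3 and 27.9 CPM with NC siRNA and 65.7, 71.5 and 77.6 CPM with BNC2 siRNA (log2 fold change 1.22, standard error 0.09, edgeR adjusted p = 5.6e-09). The lowest log2 fold change of the list was that of PIGX (-0.93, standard error 0.08, edgeR adjusted p = 2.1e-08). The transcripts of CD55 and CD59 fell, therefore, while more genes of the anchor list rose than fell.

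C3 was low and its groups overlapped. C3 had 36, 33 and 17 counts with NC siRNA and 44, 32 and 41 counts with BNC2 siRNA, equal to 2.03, 1.85 and 1.02 CPM against 2.56, 1.81 and 2.61 CPM. The log2 fold change was 0.49 with a standard error of 0.27 and a 95% interval from -0.07 to 1.06 (edgeR adjusted p = 0.11). The interval runs from a small fall to a rise of just over 1 log2 unit, and no change within it could be resolved with these counts.

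More reads were found on the strand opposite to C3 than on its own. The opposite strand held 119, 93 and 110 reads with NC siRNA and 59, 65 and 60 with BNC2 siRNA, 6.18 ± 0.84 against 3.64 ± 0.20 CPM (SD, n = 3, exact two-sided permutation p = 0.1). All 3 knockdown libraries were below the 3 control libraries. The series table of counts, from which the edgeR fit was made, leaves these reads out. When the reads of both strands were counted, the sign of the C3 change turned and the call with it, to a log2 fold change of -0.38 (edgeR adjusted p = 0.019). No gene annotated by GENCODE overlaps C3 (chr19:6677715-6730573, minus strand) on the opposite strand. Over all genes, opposite-strand reads amounted to 2.13% to 2.19% of own-strand reads with NC siRNA and 1.62% to 1.89% with BNC2 siRNA. These ranges did not overlap, so the share was lower across the knockdown libraries and not at C3 alone. For C1R, C1S, CD46, CD55 and CD59 it was at most 0.709% in either group, and lower with BNC2 siRNA in each gene. The part of this library-wide difference in the C3 values was not tested.

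**Figure D3:**
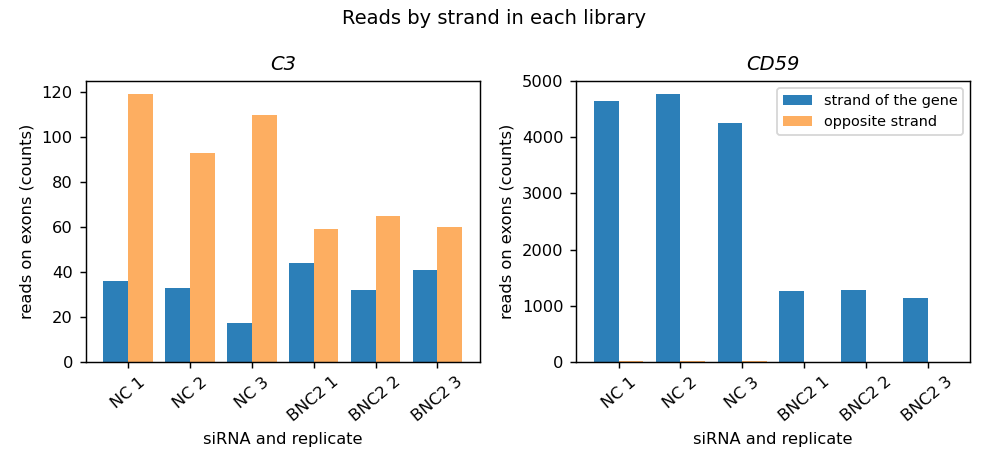
Reads (counts, bars from 0) on the exons of C3 (left) and CD59 (right) in each library, on the strand of the gene (blue) and on the opposite strand (orange). For C3 the opposite strand holds more reads than the gene's own strand in all 6 libraries, 93 to 119 with NC siRNA and 59 to 65 with BNC2 siRNA, whereas for CD59 it holds at most 14 reads.

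The tested genes at the first places by nearness to the pattern of C3 over the 6 libraries were NUDT3 and LOC401074, at distances of 0.15 and 0.23 on the mean-centred log2 scale. The log2 fold change of each was 0.40. With 6 libraries and few C3 reads, this order is a description of these libraries.

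The remaining alternative pathway genes were at or near 0. CFB (chr6:31913427-31919863), which encodes factor B, had 4, 7 and 5 counts with NC siRNA and 10, 9 and 4 counts with BNC2 siRNA. CFD (chr19:859453-867884), which encodes factor D, had 15, 10 and 18 counts with NC siRNA and 23, 6 and 10 counts with BNC2 siRNA. In both genes the groups overlapped. CFI (chr4:110652164-110723306) had 0 counts in all 6 libraries, which at this depth allows a level of up to 0.168 to 0.191 CPM. CFB and CFD had opposite-strand reads at 117% to 144% and 41.0% to 53.5% of their own-strand reads. In GENCODE, MED16 overlaps CFD on the opposite strand, whereas no annotated gene overlaps CFB on that strand. The part of MED16 in the CFD reads was not tested. A change of CFB, CFD or CFI after BNC2 siRNA could not be resolved with these counts.

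Per kilobase, CFD reached 0.70 ± 0.22 CPM (SD, n = 3) and C3 0.31 ± 0.10 CPM with NC siRNA, far below the 23.8 CPM of C1S. In these cells C1S and membrane regulator transcripts were thus plentiful, whereas C3 and the alternative pathway transcripts were scarce, with either siRNA.

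A list of 49 other complement genes, from recognition molecules to receptors, was read in the same fit. Of these, 29 had at most 3 counts in every library, among them 21 with 0 counts throughout, and 11 further genes did not pass the filter. Of the 9 tested, 3 rose (C1RL, CLU and ITGAM), 5 fell and 1 was not called, while of all genes tested 36.6% rose and 36.2% fell. In this fit the filter fixed the direction that CR1, CFP and, for the most part, ITGAM could show. Without a filter on low counts their log2 fold changes were -2.30 (CR1), -1.60 (CFP) and 1.18 (ITGAM), with edgeR adjusted p = 1.3e-11, 4.3e-06 and 0.00017. The genes were still picked through the filter, so these values add no separate support. Adjusted p also shifted for genes that the filter did not affect in this way, to 2.4e-26 from 6.8e-08 for C1R and to 0.066 from 0.035 for CD93. It is therefore not comparable between the fits. The number that fell was 2, 2 and 3 of 7 genes tested without NC siRNA replicates 1, 2 and 3. Without a filter on low counts it was 9 of 28 genes tested, beside 4843 of 18121 over all genes. Several partners of C1R and C1S were in the undetected group. Named after their values were seen, these include C1QA and C1QC with 0 counts in every library, C1QB with at most 2, SERPING1, the inhibitor of both proteases, with at most 2, and the C1s substrates C4A and C4B with 0. C4A and C4B are near-identical copies, and reads shared between copies are missing from these counts.

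Of the later components, C5 and CFP fell. C5, the precursor of the lytic pathway, was 4.56, 3.47 and 3.13 CPM with NC siRNA and 1.40, 1.81 and 1.72 CPM with BNC2 siRNA (log2 fold change -1.18, standard error 0.22, edgeR adjusted p = 0.00014). CFP, which encodes properdin, the stabiliser of the alternative convertase, was 1.86, 2.18 and 2.05 CPM with NC siRNA and 0.64, 0.51 and 0.83 CPM with BNC2 siRNA (log2 fold change -1.63, standard error 0.29, edgeR adjusted p = 7.5e-05). CFP passed the filter through the NC siRNA libraries alone. The groups did not overlap for C5, whereas for CFP the filter fixed that they would be separate. Both genes were low.

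CLU and ITGAM rose. CLU encodes clusterin, a secreted protein that restrains the membrane attack complex as CD59 does. Its level was 103, 118 and 115 CPM with NC siRNA and 289.9, 278 and 258 CPM with BNC2 siRNA (log2 fold change 1.30, standard error 0.07, edgeR adjusted p = 3.2e-11). Clusterin and CD59 transcripts thus moved in opposite directions. ITGAM, the alpha chain of complement receptor 3, was 1.07, 0.90 and 0.90 CPM with NC siRNA and 2.09, 1.92 and 2.42 CPM with BNC2 siRNA (log2 fold change 1.15, standard error 0.25, edgeR adjusted p = 0.00065). Only 1 NC siRNA library exceeded 1 CPM, so ITGAM passed the filter mainly through the BNC2 siRNA libraries. ITGAM is a leukocyte gene, and the pan-leukocyte marker PTPRC had 2 to 6 counts with NC siRNA and 3 to 7 with BNC2 siRNA. Over 8 leukocyte and macrophage markers the summed level was 113 to 127 CPM with NC siRNA and 139 to 151 CPM with BNC2 siRNA, nearly all of it CD68, with 4 of the 8 at no more than 3 counts in each library. CD14, a monocyte marker of this list, had fewer counts with BNC2 siRNA (36, 30 and 23 against 12, 9 and 11). CSF1R, a macrophage receptor of this list, had more (2, 1 and 3 counts against 7, 11 and 7), and CD68 rose (log2 fold change 0.29, edgeR adjusted p = 0.00041). The part of these marker genes in the ITGAM result was not tested.

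**Figure D4:**
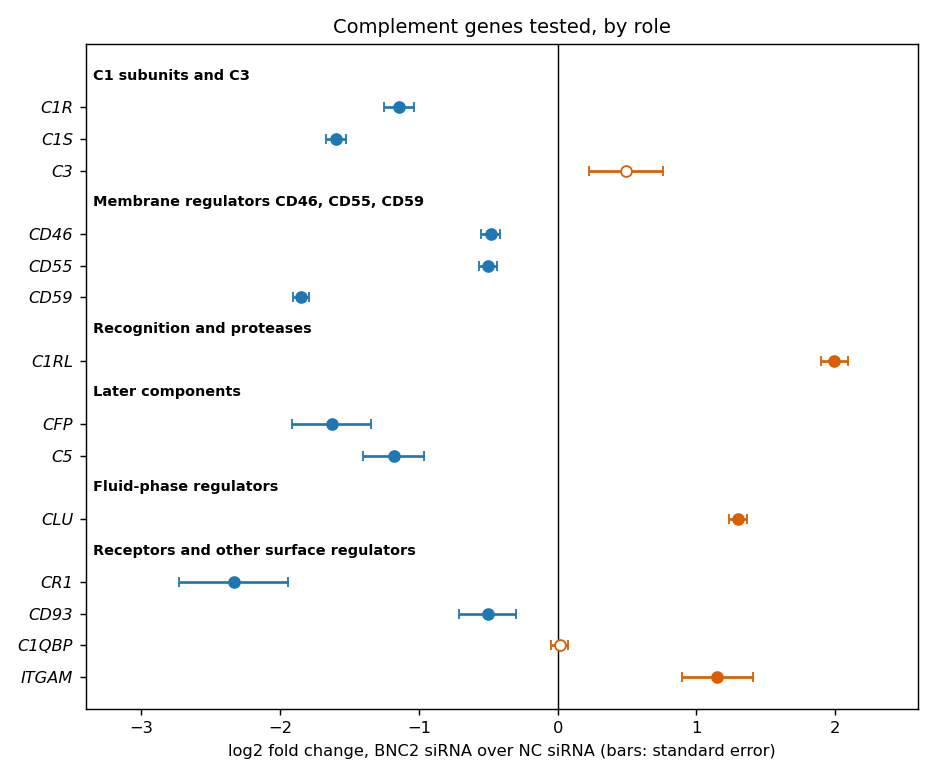
Log2 fold change (BNC2 siRNA over NC siRNA, horizontal axis, bars are standard errors) of complement genes tested, grouped by role. Blue points are below 0, orange points above 0, and open points were not called. C1R, C1S, CD46, CD55 and CD59 lie between -1.85 and -0.48, while C1RL, CLU and ITGAM lie at 1.15 or above.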

How the data were processed

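The authors isolated poly(A) RNA, aligned single-end reads to hg19 with STAR (2.6.1d, iGenomes UCSC annotation) and deposited raw counts of uniquely mapped reads per gene. The deposited series table holds the reverse-strand counts, and the library tables also give counts for either strand. Reads assigned to no gene (37.7% to 41.1% of a library) were left out. Genes above 1 CPM in 3 or more of 6 libraries were tested with edgeR 4.0.16 (TMM, quasi-likelihood, R 4.3.3), and the authors' likelihood ratio test was an alternative. DESeq2 1.42.0 was another. Standard errors are the log2 fold change divided by the square root of F. No pair of libraries agreed within sampling noise (chi-square per degree of freedom 3.50 to 11.9). For nearness, 0.5 CPM was added before taking log2.

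The complement genes, the pathway and GPI lists and the markers were chosen with earlier results of these data known. Genes of the lists were named where called with an absolute log2 fold change of at least 1, and PIGX as the lowest of the GPI list. Positions come from GENCODE release 44 mapped to GRCh37, motif counts from RefSeq windows (Python 3.11.15). C1S and C3 had no RefSeq window here. Results of some single genes that the lists or rules would name are not reported here. The labels and the methods name different transfection reagents.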

Additional observations from a re-analysis of the deposited data

How the results depend on the processing

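In 306 of 322 comparisons of 24 results with up to 14 alternatives (another test, scaling or filter, a replicate block, both strands, each library left out), direction and call were kept, or a count stayed within 1.5 times. C1R, C1S, CD46, CD55 and CD59 fell in all 14, and with counts of both strands C3 was called down as well (-0.38), which made 6 calls. All genes called numbered 8084 to 9662. Falls in the list of 49 genes numbered 5 in the main analysis and 9 without a filter on low counts (28 genes tested). In the fit without a filter 4843 of all 18121 genes tested fell. With a library left out the list had 2 to 5 falls, namely 2, 2 and 3 without NC siRNA replicates 1, 2 and 3. In those fits 7 genes of the list were tested and CR1 and CFP were not. Over all genes tested, falls then numbered 4237 of 11846, 3958 of 11842 and 4032 of 11837. The log2 fold change of C1QBP, which was not called (0.01), was -0.061 with total counts only and -0.050 to 0.059 with a library left out. CD93, named after its values were seen, was called at -0.50 (edgeR adjusted p = 0.035) and not in 7 alternatives (DESeq2, no filter, the replicate block, and without NC siRNA replicates 1 or 2 or BNC2 siRNA replicates 1 or 2). Total counts only moved the median of all genes to -0.07.

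Replicate numbers did not pair the libraries (correlations of same-numbered deviations -0.26, -0.09 and -0.15). With the replicate block 4245 genes rose and 4155 fell, and 5 complement genes were still called down. CFB, CFD and C3 had few own-strand counts and CFI had none, and the part of depth in this was not tested. Without a filter CFB was 0.58 (adjusted p = 0.45) and CFD -0.07 (adjusted p = 0.9) in edgeR's test.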

Other observations

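Among complement genes that did not pass the filter on low counts, C8G and MASP2 had fewer counts with BNC2 siRNA. All genes of this paragraph were picked after their values were seen. C8G, the gamma chain of C8 in the membrane attack complex, had 33, 29 and 14 counts with NC siRNA and 4, 3 and 0 counts with BNC2 siRNA. MASP2, a protease of the lectin pathway that resembles C1s, had 1, 9 and 8 counts with NC siRNA and 0 counts in each BNC2 siRNA library. C5AR1, the receptor of the C5 fragment C5a, had 13, 5 and 12 counts with NC siRNA and 7, 11 and 6 counts with BNC2 siRNA, which overlap.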
